A study of Mus musculus with 29 samples.

Results

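T cell receptor beta chains (TRB) whose CDR3 is written with 12 or fewer amino acid letters were described in metastases that a Braf-mutated melanoma model formed in brain and ovary of mice. The CDR3 is the loop of the receptor in which V, D and J segments are joined, and its length here includes the conserved first and last residue. Clonotypes were told apart by V segment, J segment and CDR3 letters. Members were the productive TRB clonotypes, meaning those with every letter resolved, of at most 12 letters. They were 3841 of 27384 productive TRB clonotypes (14.03%) and held 44305 of 289365 TRB counts (15.3%), in a table of 49519 TRB and TRA combinations. Of the 3841 clonotypes, 1217 were found in brain samples, 2877 in ovary samples and 253 in both organs.

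The study asked whether an antibody against PD-L1, which engages the inhibitory receptor PD-1 on T cells, works better with MAPK inhibition when it is given ahead as a lead-in. All 29 samples came from mice with melanoma metastases, in 5 treatments: no treatment on day 0 (titles say vehicle), a lead-in of anti-PD-L1 on day 0, trametinib (an inhibitor of the MAPK pathway kinase MEK) on day 3, trametinib with anti-PD-L1 on day 3 (concurrent combination), and, also on day 3, that combination after a lead-in (lead-in combination). Each of the 19 brain and 10 ovary samples carries a number, and all but 1 also a part 1 or 2 of that number. Brain had 2 numbers per treatment and ovary 1, with 5 numbers (1, 3, 10, 12 and 13) sampled in both organs. What a number stands for (an animal or something else), and what its parts are, is not stated in the labels, and p-values therefore cover only the spread between numbers. The labels give no strain, age, dose or injected cell line. Brain samples held a median of 1273 and at most 7067 TRB counts, with 9 of 19 under 1000, and ovary samples 16179 to 51674.

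During beta chain assembly the ends of the V, D and J segments are trimmed and random bases are added at the joins, so CDR3 length reflects what the segments bring, what trimming removes and what is added. The V segment gives the loop its first letters, usually CAS, and the J segment its last, ending in F. The letters between contact the peptide most directly. Chains that need few added letters can be made repeatedly in different T cells, and such chains are known as public clonotypes when they recur between individuals.

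The largest, the most widely shared and the shortest members show what such a loop looks like. They are given first so that each can be read against the values that follow. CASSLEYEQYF had the highest mean share in brain and was found in the most numbers. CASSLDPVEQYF and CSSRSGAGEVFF had the highest mean shares in ovary, and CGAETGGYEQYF ranked high in both organs. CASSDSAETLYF is wholly made of letters common in its V and J segments, and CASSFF and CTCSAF were the shortest with at least 10 counts.
TRBV12-1 with TRBJ2-7, 11 letters: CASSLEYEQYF
TRBV12-1 with TRBJ2-7, 12 letters: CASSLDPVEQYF
TRBV30 with TRBJ1-1, 12 letters: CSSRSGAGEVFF
TRBV20 with TRBJ2-7, 12 letters: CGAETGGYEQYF
TRBV13-1 with TRBJ2-3, 12 letters: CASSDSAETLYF
TRBV4 with TRBJ2-5, 6 letters: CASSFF
TRBV1 with TRBJ2-7, 6 letters: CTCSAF

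Most members lay at the limit. There were 2710 clonotypes of 12 letters, 866 of 11, 198 of 10, 51 of 9, 11 of 8, 3 of 7 and 2 of 6. Just inside the limit, clonotypes of 12 letters held 34322 counts (11.9% of TRB counts), and just outside it the 5036 clonotypes of 13 letters held 59080 counts (20.4%). The most frequent length was 14 letters, with 8146 clonotypes. Over summed samples, 12-letter chains were 10.4% of brain and 10.3% of ovary clonotype entries, an entry being 1 clonotype in 1 sample. Very short loops were rare in both organs: lengths of 9 letters made up 0.211% of brain and 0.185% of ovary entries.

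**Figure D1:**
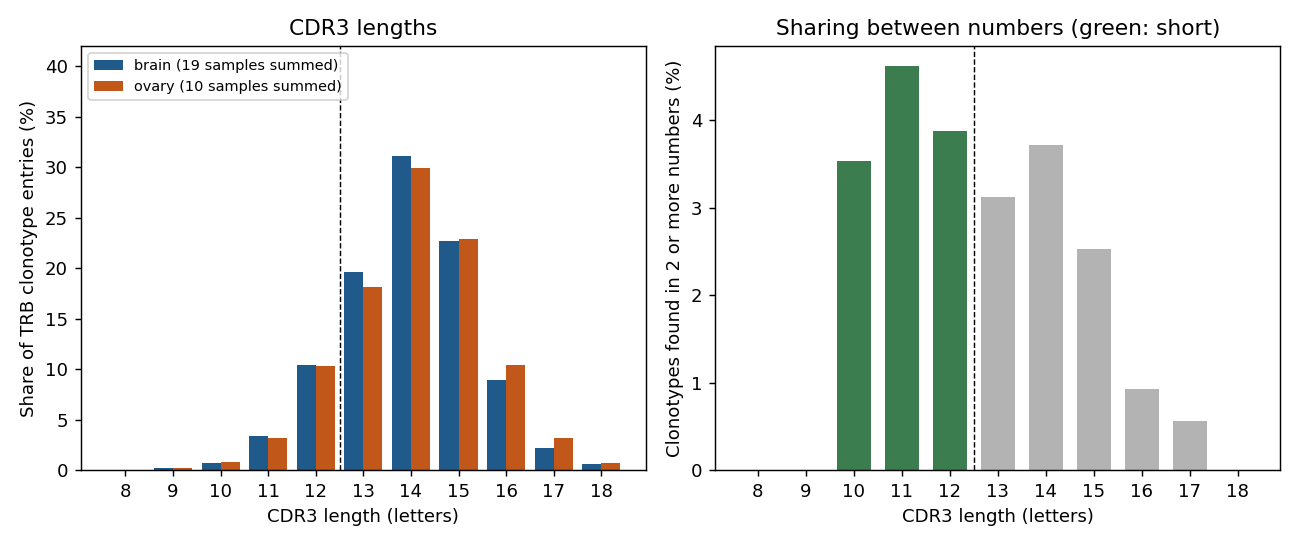
Left, share of TRB clonotype entries (percent, linear axis) at each CDR3 length of 8 to 18 letters, summed over the 19 brain samples (blue) and the 10 ovary samples (orange); right, percent of the clonotypes of each length found in 2 or more numbers, with the dashed line at the limit. The organs have like profiles with a peak at 14 letters. Sharing is 0% at 8 and 9 letters and 3.54% to 4.62% at 10 to 12. At 13, 14, 15 and 16 letters it is 3.12%, 3.72%, 2.52% and 0.928%.

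Short and longer loops used the same 12 J segments in different shares. For each segment, the percent of a number's short clonotypes that carry it was set against the same percent among its longer clonotypes. TRBJ2-7 stood out. In ovary it was carried by 33.3%, 38.8%, 33.1%, 38.0% and 37.6% of the short clonotypes of numbers 1, 3, 10, 12 and 13, and by 17.1%, 17.9%, 18.9%, 19.4% and 17.3% of their longer ones. In brain its share of short clonotypes had a lowest value of 34.3%, a median of 38.5% and a highest value of 54.5% over 10 numbers, against 16.5%, 17.8% and 21.2% of longer ones. Short and longer values did not overlap in either organ. The log2 ratio of the shares was 0.99 ± 0.08 (SE, n = 5 numbers) in ovary and 1.12 ± 0.05 (n = 10) in brain (edgeR quasi-likelihood test on numbers of distinct clonotypes, adjusted p = 1.08e-23 and 4.22e-27). Here and below, SEs of log2 ratios come from this fit to clonotype numbers, and are not the spread of 5 or 10 separate values. With DESeq2 the adjusted p was 2.67e-08 in ovary and 5.41e-20 in brain. The 5 numbers of ovary are also among the 10 of brain, so the organs are not independent.

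TRBJ1-1 was the only other J segment with a higher share among short clonotypes that passed in these fits. It was carried by 17.5% ± 2.67 of short and 8.60% ± 0.842 of longer ovary clonotypes (SD, n = 5 numbers; log2 ratio 1.04 ± 0.13 SE, edgeR adjusted p = 9.04e-12). In brain the shares were 14.8% ± 3.50 and 8.22% ± 1.37 (n = 10; log2 ratio 0.73 ± 0.12, edgeR adjusted p = 1.80e-06). The share was higher in 5 of 5 ovary and 10 of 10 brain numbers, though in brain the 2 ranges overlapped (9.52% to 19.05% and 5.86% to 10.04%). Together the 2 segments were the J segments of 659 and 1389 of the 3841 members.

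Counted over the whole fit, 16 of 33 segments (48.5%) passed in ovary, 7 higher (21.2%) and 9 lower (27.3%) among short clonotypes. In brain 17 of 31 (54.8%) passed, 6 higher (19.4%) and 11 lower (35.5%). The fits held 12 TRBJ segments in each organ, 21 TRBV segments in ovary and 19 in brain, out of 25 V and 12 J names among the members. Shares of V, and of J, sum to the whole within a class, so a higher share of 1 segment goes with lower shares of others.

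The J segments with lower shares were the same 7 in both organs: TRBJ1-3, TRBJ1-4, TRBJ1-6, TRBJ2-1, TRBJ2-2, TRBJ2-3 and TRBJ2-4. TRBJ2-2 had the lowest log2 ratio, -1.68 ± 0.22 in ovary and -1.71 ± 0.24 in brain (SE; edgeR adjusted p = 2.77e-11 and 4.48e-08). It was carried by 1.52%, 2.30%, 1.86%, 1.23% and 2.18% of the short ovary clonotypes of numbers 1, 3, 10, 12 and 13, against 6.57%, 6.37%, 5.56%, 6.37% and 4.90% of longer ones. In brain the shares ran from 0% to 3.70% of short and from 4.17% to 7.83% of longer clonotypes, again without overlap. The other 6 had log2 ratios of -1.44 (TRBJ1-3) to -0.55 (TRBJ2-4) in ovary and -1.57 (TRBJ1-6) to -0.47 (TRBJ2-4) in brain. TRBJ1-2, TRBJ1-5 and TRBJ2-5 passed in neither organ.

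**Figure D2:**
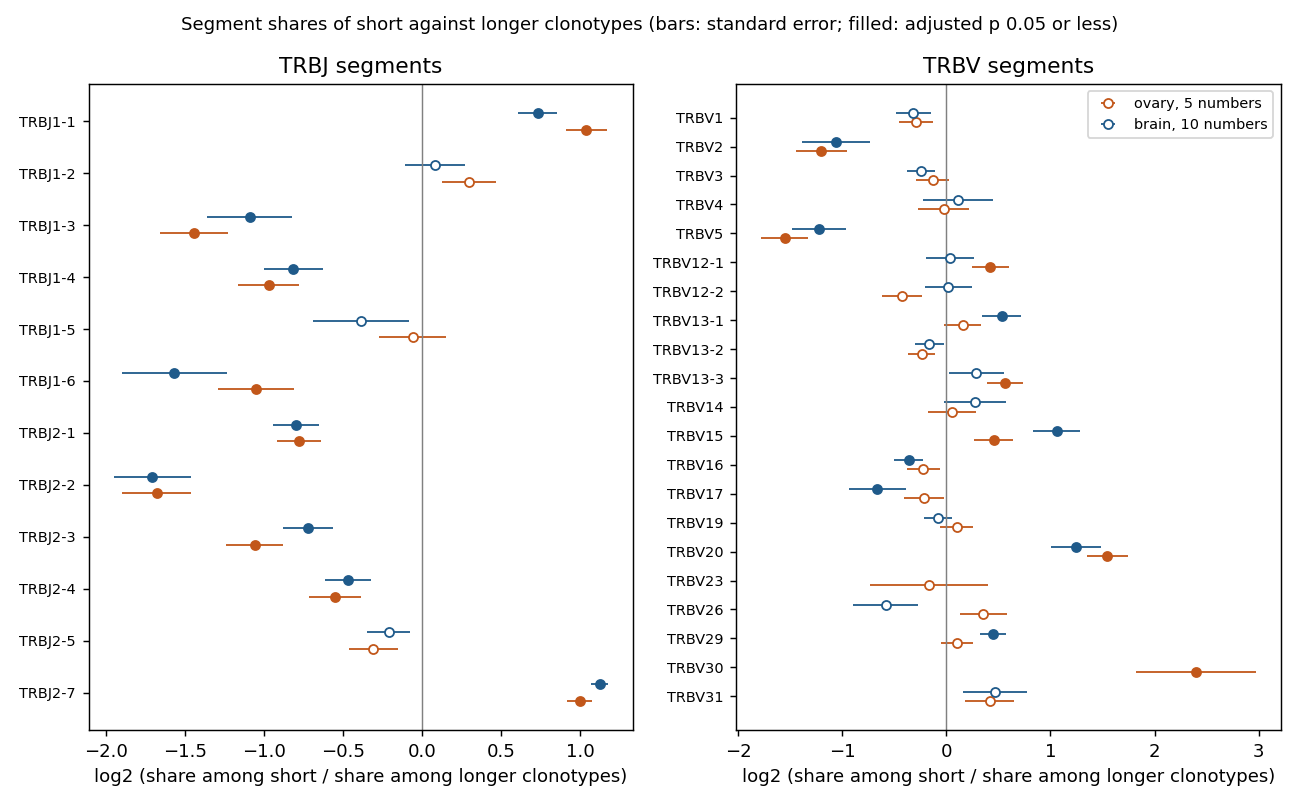
Log2 of a segment's share among short clonotypes over its share among longer ones (x axis), for the TRBJ segments (left) and TRBV segments (right) tested, in ovary (orange, 5 numbers) and brain (blue, 10 numbers), with standard errors and filled points at an adjusted edgeR p of 0.05 or less. TRBJ2-7 and TRBJ1-1 lie to the right of 0 and 7 J segments to the left in both organs, and TRBV30, tested in ovary only, has the highest ratio, 2.40.

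Among V segments, TRBV20 and TRBV15 had higher shares among short clonotypes in both organs, and TRBV5 and TRBV2 lower ones. TRBV20 was carried by 2.03%, 8.55%, 3.72%, 7.65% and 4.55% of the short ovary clonotypes of numbers 1, 3, 10, 12 and 13, and by 1.68%, 1.99%, 1.56%, 1.86% and 1.45% of longer ones. Short was above longer in 5 of 5 numbers, with a wide spread among the short values. The log2 ratio was 1.55 ± 0.20 in ovary and 1.24 ± 0.24 in brain (SE; edgeR adjusted p = 9.04e-12 and 1.40e-05), and it was higher in 8 of 10 brain numbers. TRBV5 had log2 ratios of -1.55 ± 0.23 and -1.22 ± 0.26 (edgeR adjusted p = 1.79e-09 and 5.97e-05), at 1.55% of short and 4.61% of longer clonotypes in ovary and 1.97% and 5.01% in brain. TRBV2 had -1.20 ± 0.24 and -1.06 ± 0.33 (edgeR adjusted p = 7.34e-06 and 0.00463). With a limit of 11 letters the brain call of TRBV20 was lost (log2 ratio 0.46, edgeR adjusted p = 0.350), and TRBV2 was called in neither organ (-0.72 in ovary and -0.96 in brain, edgeR adjusted p = 0.116 and 0.146).

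TRBV30 was rare in both classes. It was carried by 1.18%, 0.329%, 2.91%, 1.23% and 1.58% of the short ovary clonotypes of numbers 1, 3, 10, 12 and 13, and by 0.244%, 0.457%, 0.263%, 0.119% and 0.290% of longer ones. It was higher in 4 of 5 numbers, and lower in number 3 (log2 ratio 2.40 ± 0.57 SE, edgeR adjusted p = 0.000148). With a limit of 11 letters its ratio was 0.61 (edgeR adjusted p = 0.481), and without number 10 it had too few clonotypes to be tested. It had too few clonotypes in brain to be tested there.

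TRBV15 had log2 ratios of 0.45 ± 0.19 in ovary and 1.06 ± 0.23 in brain (SE; edgeR adjusted p = 0.0372 and 5.97e-05). The remaining V segments that passed did so in 1 organ: TRBV13-3 (0.56) and TRBV12-1 (0.42) in ovary, TRBV13-1 (0.53), TRBV29 (0.45), TRBV16 (-0.36) and TRBV17 (-0.66) in brain. Whether they differ between the organs was not tested. Each of these 6 calls, and the ovary call of TRBV15, was lost in 2 or more alternatives. With a limit of 11 letters the ratios were 0.52 for TRBV13-3 in ovary and 0.37 for both TRBV13-1 and TRBV29 in brain (edgeR adjusted p = 0.165, 0.350 and 0.208). TRBV13-1 had 0.41 without number 6 (edgeR adjusted p = 0.0851). Without number 1 the ratios were 0.25 for TRBV12-1 and 0.32 for TRBV15 in ovary and -0.27 for TRBV16 in brain (edgeR adjusted p = 0.298, 0.222 and 0.174). TRBV12-1 was also lost without number 10 or 13, TRBV15 without number 3, and TRBV16 without number 8, 11 or 13. TRBV17 was lost without number 8, 10, 11, 12, 13 or 14, with a ratio of -0.54 without number 14 (edgeR adjusted p = 0.133).

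Weighting by counts left fewer calls. With counts in place of clonotypes, 5 segments passed in ovary and 11 in brain, of which 4 and 9 were among those above. In ovary TRBJ2-7 and TRBJ1-1 then had log2 ratios of 0.82 and 0.88 (edgeR adjusted p = 0.0993 and 0.0798), and TRBV15 one of -0.01. TRBV20 was called in neither organ (1.85 in ovary and 1.04 in brain, edgeR adjusted p = 0.0993 and 0.0635). In brain TRBJ2-7 (1.00) and TRBJ1-1 (0.85) still passed (edgeR adjusted p = 2.21e-11 and 0.00554). Of the 7 J segments with lower shares, TRBJ1-6 and TRBJ2-2 alone still passed in ovary (edgeR adjusted p = 0.0100 and 0.0203). In brain TRBJ2-4 alone of the 7 lost its call (edgeR adjusted p = 0.183). Its brain call was also lost with TMM scaling of the clonotype totals (log2 ratio -0.34, edgeR adjusted p = 0.0822).

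Seen from the segments, the chance of a short loop differed widely. Of the clonotypes with TRBV30, 43.1% (56 of 130) had 12 or fewer letters. The share was 31.4% for TRBV20, 24.9% for TRBJ2-7 and 24.6% for TRBJ1-1, and at the other end 7.14% for TRBV2, 5.87% for TRBV5 and 4.92% for TRBJ2-2. The letters that these segments commonly bring differ in number. Taking the letters held by at least 20% of a segment's clonotypes at that position, TRBV30 starts with CSSR (4 letters), while TRBV5 and TRBV2 start with CASSQD (6 letters). TRBJ2-7 ends with SYEQYF and TRBJ1-1 with NTEVFF (6 letters each), TRBJ2-2 with NTGQLYF (7) and TRBJ1-6 with SYNSPLYF (8). TRBV20, with CGARD, has 5 letters like most V segments, and TRBJ2-5, with QDTQYF, has 6 but was not called. TRBV4, with CASS, has 4 letters like TRBV30, but only 14.5% of its clonotypes were short. Its log2 ratios were -0.03 in ovary and 0.11 in brain, without a call. TRBV1 (CTCSAD) and TRBV23 (CSSSQS, tested in ovary only) have 6 letters and were not called. Nor were TRBJ1-2 and TRBJ1-5, with 7 letters each. Whether the number of common letters accounts for the shares was not tested.

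Short loops kept fewer of those common letters at each end and held fewer between them. Over 10 numbers, the run of letters matching the common V start was 4.10 ± 0.109 letters in short and 4.41 ± 0.0378 in longer clonotypes (SD). The run matching the common J end was 4.84 ± 0.109 and 5.74 ± 0.0828 letters. The letters between were 2.67 ± 0.196 and 4.25 ± 0.194. Since these add up to the length that chose the members, they are a description with no test. In 122 short clonotypes (3.18%) and 10 longer ones (0.0425%) the V start and the J end met with no letter between, as in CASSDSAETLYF.

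**Figure D3:**
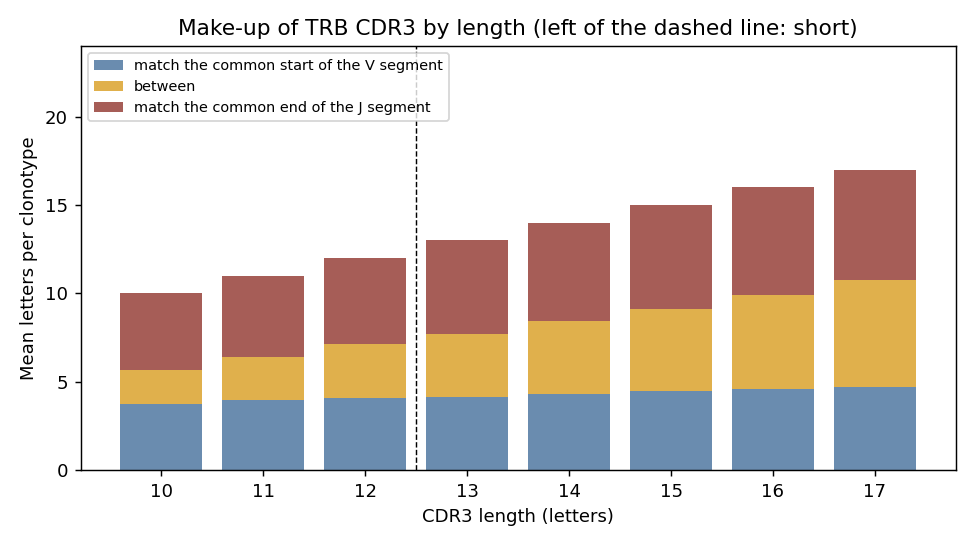
Mean letters per clonotype (y axis) at CDR3 lengths of 10 to 17 letters, split into those that match the common start of the V segment, those between, and those that match the common end of the J segment. From 12 to 10 letters the part between falls from 3.05 to 1.88 letters, the J end from 4.88 to 4.34 and the V start from 4.07 to 3.77.

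In the middle of the loop, with the first 4 and last 4 letters left out, 5 of 20 amino acids (25.0%) differed between short and longer clonotypes over 10 numbers. This middle is what remains of the length that chose the members, so it is shorter in every member. Letters beside the V start and J end thus weigh more in short middles, and these tests cannot tell composition from length. Glycine made up 17.8% ± 1.81 of the middle letters of short and 22.0% ± 0.333 of longer clonotypes (SD), a difference of -4.21 points, and was lower in 10 of 10 numbers. Tryptophan was also lower in 10 of 10 (1.30% ± 0.233 and 2.62% ± 0.417). Aspartate was higher in 10 of 10 (10.6% ± 1.16 and 8.26% ± 0.305), as was tyrosine (7.32% ± 0.915 and 4.48% ± 0.329). Each of these 4 had an exact two-sided sign-flip p of 0.00195, the smallest the design allows, and an adjusted p of 0.00977. Asparagine was lower in 9 of 10 (a difference of -1.26 points, exact p = 0.00586, adjusted p = 0.0234).

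Tyrosine and asparagine depended on where the middle begins and on TRBJ2-7. The common end of TRBJ2-7, SYEQYF, has a tyrosine just before its last 4 letters, which falls in the middle as defined. With clonotypes of TRBJ2-7 left out, tyrosine made up 2.23% ± 0.388 of short and 2.84% ± 0.511 of longer middles and was lower in 9 of 10 numbers (exact sign-flip adjusted p = 0.0312). Asparagine then differed by -0.162 points (exact adjusted p = 0.742), and it also lost its call when weighted by counts (-1.28 points, exact adjusted p = 0.1497). With the first 5 and last 5 letters left out it was different by -0.811 points (exact adjusted p = 0.0244), while asparagine was higher by 1.24 points (exact adjusted p = 0.0352). Glycine, tryptophan and aspartate kept their direction and their call under all 13 alternatives, including these, but each of them used a middle set by length.

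Across treatments, short chains held the smallest mean share of brain TRB counts in the lead-in combination, but no treatment comparison passed. The shares of the untreated brain samples were 18.2% and 14.7% (number 3) and 18.8% (number 7), and those of the lead-in alone 15.0% and 18.5% (number 10) and 17.0% and 16.9% (number 11). Trametinib samples had 23.8% and 13.7% (number 13) and 18.98% and 13.8% (number 8). These 3 treatments overlapped throughout. The concurrent combination had 15.4% and 16.0% in number 1 but 10.3% and 9.69% in number 6. The lead-in combination had 11.7% and 14.4% in number 12 and 9.31% and 8.08% in number 14, so that only its part 2 of number 12 reached above the lowest trametinib sample. Mean shares over samples (SD) were 17.2% ± 2.24 when untreated (n = 3), and with n = 4 each 16.8% ± 1.40 with the lead-in, 17.6% ± 4.82 with trametinib, 12.9% ± 3.33 for the concurrent and 10.9% ± 2.81 for the lead-in combination. The samples of a treatment come from only 2 numbers, so these SDs mix parts with numbers and do not measure the spread between numbers. In such bulk RNA, fewer cells of a clone and less receptor RNA per cell cannot be told apart.

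The tests were run over 10 numbers with parts averaged, and p-values were adjusted over 8 brain tests. With any anti-PD-L1 the count share differed by -3.26 points within day (exact permutation, two-sided, p = 0.0667, adjusted p = 0.250). On day 3 this set 11.9% against 17.6%, and on day 0 the lead-in alone, at 16.8%, against 17.6% in untreated numbers. The lead-in differed by -2.57 points (exact permutation p = 0.167, adjusted p = 0.250). Trametinib-containing treatments differed by -3.47 points from the others (exact permutation p = 0.129, adjusted p = 0.250), and there day and treatment cannot be told apart. Of the sum of squares, 70.8% lay between the 5 treatments (exact permutation p = 0.135, adjusted p = 0.250). The smallest p these designs allow is 0.0111 within day, 0.00476 for trametinib and 0.00106 for the 5 treatments.

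Counted by clonotypes rather than counts, the brain means ran from 13.9% to 17.5%. Short chains were 16.5% ± 1.63 (SD, n = 3 samples) of clonotypes when untreated, 15.4% ± 1.87 with the lead-in, 17.5% ± 3.09 with trametinib, 13.97% ± 2.51 for the concurrent and 13.9% ± 1.28 for the lead-in combination (n = 4 samples each, from 2 numbers). With anti-PD-L1 they differed by -2.41 points within day (exact permutation, two-sided, p = 0.0444, adjusted p = 0.250). With the lead-in the difference was -1.54 (exact permutation p = 0.2, adjusted p = 0.250) and with trametinib -0.885 (exact permutation p = 0.495, adjusted p = 0.495). Between the 5 treatments lay 63.8% of the sum of squares (exact permutation p = 0.219, adjusted p = 0.250). None passed, and none passed under any of 148 alternative values of these tests, whose adjusted p ran from 0.0988 to 0.9503.

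Depth moved with treatment: brain samples held 302 to 605 TRB counts when untreated, 354 to 689 with trametinib, 672 to 5317 with the lead-in (fewer in number 10, part 1, whose share of 15.0% rests on 40 short counts), 1300 to 3195 in the concurrent and 4148 to 7067 in the lead-in combination. With every sample thinned to the depth of that sample (an expected value, computed without drawing), the anti-PD-L1 difference in clonotype share was -2.66 points (exact permutation adjusted p = 0.229). At these depths the exact Clopper-Pearson 95% interval of a single count share, which covers counting error only, ran from 10.97% to 19.9% in the shallowest brain sample (number 10, part 1) and from 8.64% to 10.01% in the deepest (number 14, part 1). With the 10 largest clonotypes of each sample left out, the trametinib difference in count share was -0.810 in place of -3.47 points. The anti-PD-L1 difference was then -3.49 points (exact permutation p = 0.0444, adjusted p = 0.178) and the lead-in difference -2.48 (exact permutation p = 0.167, adjusted p = 0.278), and the lead-in combination held 13.2% ± 1.77 (SD, n = 4 samples from 2 numbers).

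**Figure D4:**
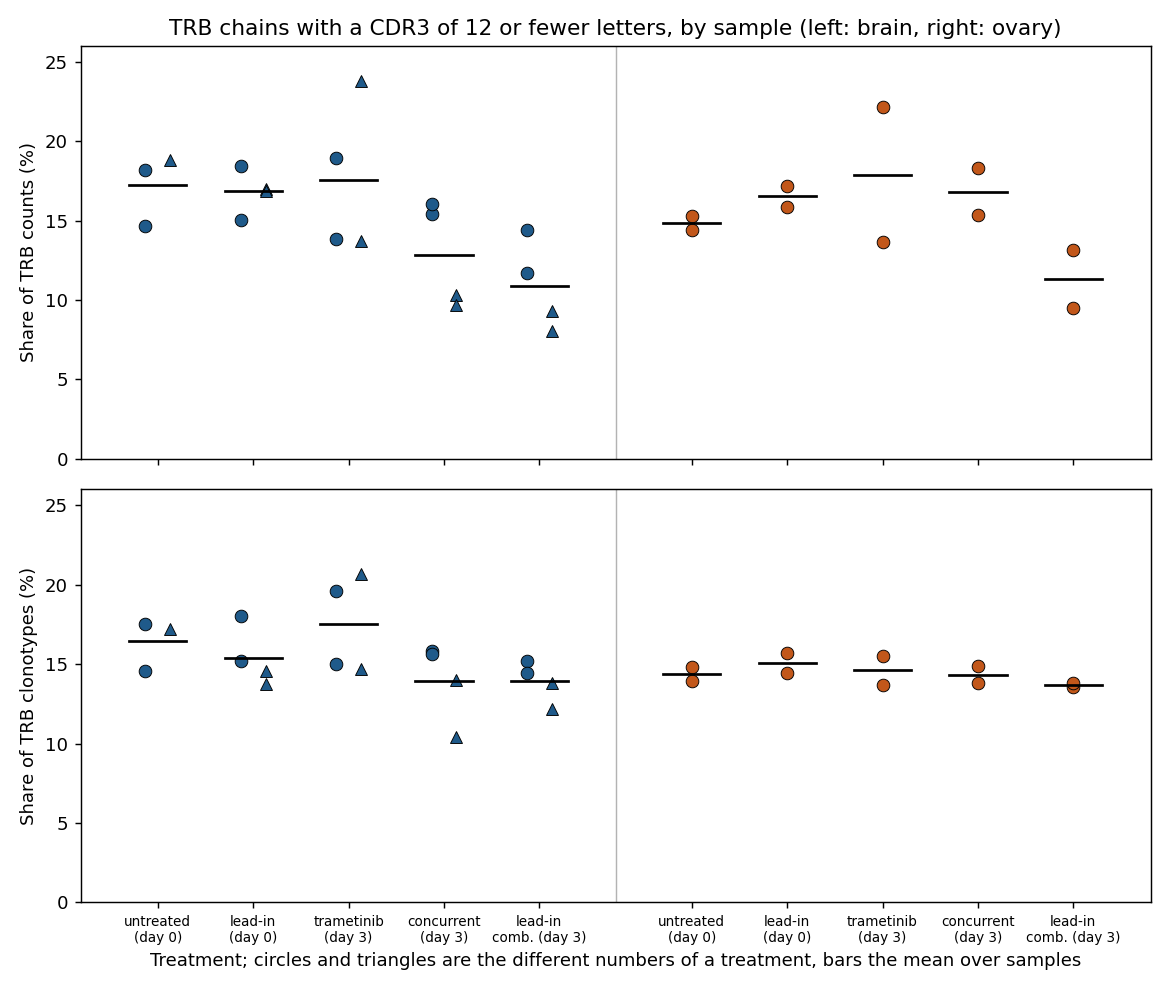
Share of TRB counts (top) and of TRB clonotypes (bottom) with a CDR3 of 12 or fewer letters, in percent, for each brain (blue) and ovary (orange) sample by treatment, with circles and triangles for the different numbers and bars for the mean over samples. The lead-in combination has the lowest mean in both organs, for counts (10.9% in brain and 11.3% in ovary) and for clonotypes (13.9% and 13.7%), the latter in brain beside 13.97% for the concurrent combination.

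In ovary each treatment has 1 number, so there is no test. The parts had count shares of 15.3% and 14.4% when untreated (number 3), 17.2% and 15.9% with the lead-in (number 10), 22.2% and 13.6% with trametinib (number 13), 18.3% and 15.3% in the concurrent (number 1) and 13.1% and 9.53% in the lead-in combination (number 12). The parts of the trametinib ovary lay farther apart than the means of all 5 treatments. A single clonotype, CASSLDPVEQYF, held 1044 of the 16179 counts of its part 1, and without it the share there was 16.8%. Clonotype shares were far more even, from 13.6% to 15.7% over the 10 ovary samples.

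Between organs, short chains were a smaller part of the ovary clonotypes than of the brain clonotypes in the unpaired test, but not in the paired one. Over the 5 numbers with both organs they were 14.4% ± 0.504 of ovary and 16.2% ± 1.07 of brain clonotypes (SD), a difference of -1.77 points (exact permutation, two-sided, p = 0.0159, adjusted over 2 measures p = 0.0317). Ovary was lower in 5 of 5 numbers. The numbers pair the organs, and with number as a block the exact sign-flip test gave an adjusted p of 0.125. Its raw p is the smallest 5 pairs allow and lies above the threshold, so the paired test could not pass. With samples thinned to the shallowest one the shares were 15.8% ± 1.27 and 16.5% ± 1.31 (exact permutation adjusted p = 0.667), so at equal depth the difference was -0.661 points. Count shares were 15.5% ± 2.56 in ovary and 16.2% ± 2.05 in brain (exact permutation p = 0.667, adjusted p = 0.667).

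Short clonotypes were neither larger nor smaller than longer ones beyond the spread between numbers. The log2 ratio of the mean count per short clonotype to that per longer clonotype was -0.07 ± 0.27 in brain (SD, n = 10 numbers, exact two-sided sign-flip p = 0.479). In ovary it was 0.09 ± 0.26 (n = 5, exact sign-flip p = 0.5), in a test that 5 numbers cannot pass. In brain the ratio ran from -0.65 in number 14 and -0.31 in number 6 to 0.31 in number 11. In ovary it was 0.27, 0.06, 0.16, -0.33 and 0.31 in numbers 1, 3, 10, 12 and 13. Both numbers of the lead-in combination were below 0 in brain (-0.65 and -0.22), as was its ovary. A median ovary entry had 3 counts in either class, and 28.9% of short and 30.9% of longer entries had a count of 1. The ovary ratio turned sign without the largest clonotype of each class (-0.07) and with a limit of 11 letters (-0.40).

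Large short clones existed in both organs. Distinct clonotypes that reached at least 1% of TRB counts in any sample of an organ were counted. Of these, 38 of 250 in brain (15.2%) and 9 of 77 in ovary (11.7%) were short. The largest short clonotype exceeded the largest longer one in ovary number 13, part 1 (6.45% and 2.24%) and equalled it in brain number 10, part 1 (3.38%, 9 counts each). In the other 27 samples a longer clonotype was the largest, reaching 14.3% in brain number 14, part 2.

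Short clonotypes recurred between numbers more often than longer ones. Over all samples, 152 of the 3841 short clonotypes (3.96%) and 651 of 23543 longer ones (2.77%) were found in 2 or more numbers, and 32 (0.833%) and 126 (0.535%) in 3 or more. Taken within each number, 7.602%, 7.63%, 16.2%, 11.9%, 9.09%, 7.75%, 11.7%, 5.97%, 10.5% and 15.5% of the short clonotypes of numbers 1, 3, 6, 7, 8, 10, 11, 12, 13 and 14 were also in another number. For longer clonotypes the values were 5.06%, 5.57%, 8.15%, 6.44%, 12.6%, 5.62%, 8.89%, 6.08%, 6.34% and 8.66%. Short was above longer in 8 of 10 numbers and below it in numbers 8 and 12. The mean difference was 3.04 points (exact two-sided sign-flip p = 0.0234), in numbers that share clonotypes with each other and so are not fully independent.

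This difference depended on the limit and on the numbers counted. With a limit of 11 letters it was 0.868 points (exact sign-flip p = 0.672), and without number 3 it was 2.48 (exact p = 0.145). In brain samples alone it was 1.83 points (exact sign-flip p = 0.0488). In ovary samples alone it was 1.46 points over 5 numbers (exact sign-flip p = 0.125), too few for this test to pass. With the CDR3 sequence alone as the clonotype it was 6.92 points (exact p = 0.0156). By length, 3.54%, 4.62% and 3.87% of clonotypes of 10, 11 and 12 letters were in 2 or more numbers, against 3.12%, 3.72%, 2.52%, 0.928% and 0.564% at 13 to 17 letters, so that clonotypes of 14 letters were shared about as often as short ones. None of the 51 clonotypes of 9 letters was found in more than 1 number.

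**Figure D5:**
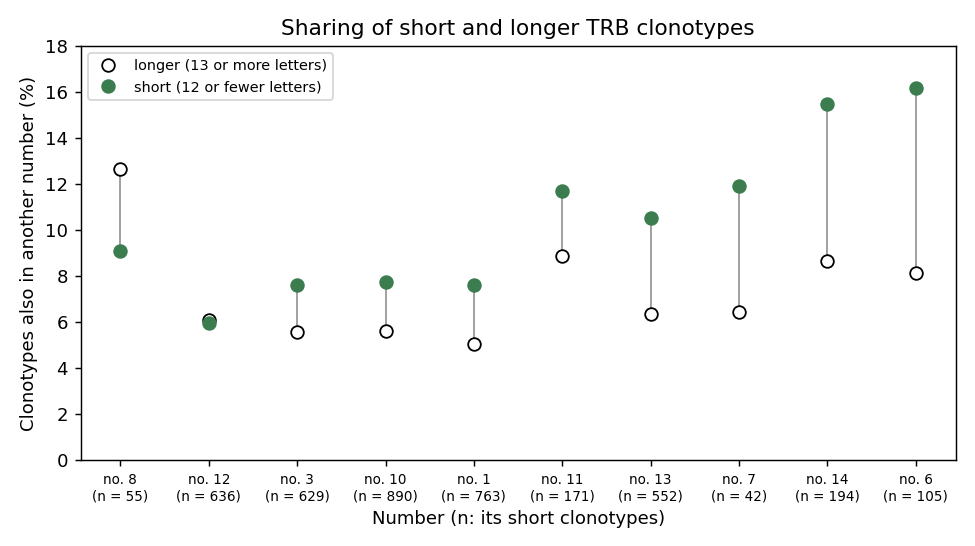
Percent of each number's clonotypes also found in another number (y axis), for short (filled) and longer (open) TRB clonotypes, with the numbers ordered by the difference and the count of short clonotypes under each. Short lies above longer in 8 of the 10 numbers, by up to 8.04 points in number 6, and below it in numbers 8 and 12.

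Shared short clonotypes carried fewer letters between their V start and J end than private ones. Those in 2 or more numbers had a mean of 1.77 letters between, and no letter between in 13.2%, while those in 1 number had 2.87 and 2.77%. For longer clonotypes the means were 3.36 and 4.45 letters. No test was made of this pooled comparison, since clonotypes are not replicates.

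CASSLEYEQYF (TRBV12-1, TRBJ2-7) was the most widely shared member, in 7 numbers and 17 samples, with 1055 counts. It held 1.22% and 3.38% of TRB counts in the brain parts of number 11 (lead-in) and 0.849% and 0.193% in those of number 14. In the other brain samples where it was found it held 0.0659% to 0.188%. In ovary it held 0.858% and 0.458% in number 1, 0.602% and 0.501% in number 10, 0.148% and 0.149% in number 13 and 0.0881% and 0.101% in number 12. It was listed in no sample of numbers 3, 7 and 8. In their shallow brain samples 0 counts allow a share of up to 0.496% to 0.993% (3 counts), above most shares at which it was seen. The 2 ovary samples of number 3 held 24408 and 18871 TRB counts, so that 0 counts there allow a share of up to 0.0123% and 0.0159% (3 counts).

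A pair of chains that differ by 1 letter, A6S counted from the first letter of the CDR3, came next. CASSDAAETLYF and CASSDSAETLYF (both TRBV13-1, TRBJ2-3) were in 6 and 5 numbers with 619 and 129 counts. The first held 0.865% and 0.393% in the brain parts of number 11 and 0.424% and 0.518% in the ovary parts of number 10, both of the lead-in, and 0.389% and 0.494% in the ovary of number 13. The second reached 0.581% (4 counts) in brain number 13, part 1, and at most 0.154% in the other samples. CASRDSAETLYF, with the same segments, was in 3 numbers. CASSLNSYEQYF (TRBV15, TRBJ2-7) was in 5 numbers with only 26 counts, and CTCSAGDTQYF (TRBV1, TRBJ2-5) in 4 with 420. The other 4 of the 10 most shared were in 3 numbers each: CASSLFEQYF, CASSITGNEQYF, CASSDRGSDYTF and a chain of TRBV20 with TRBJ1-2. Of the 10, each had at most 3 letters between its V start and J end.

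Some of the largest short clonotypes were found in both organs of a number. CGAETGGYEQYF (TRBV20, TRBJ2-7) was found only in number 12, of the lead-in combination, at 2.22% and 2.98% of brain and 3.97% and 1.99% of ovary TRB counts. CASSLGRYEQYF (TRBV3, TRBJ2-7) held 1.60% and 1.10% of brain and 1.63% and 1.31% of ovary counts in number 13, and 0.496% (3 counts) in brain number 7. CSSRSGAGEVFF (TRBV30, TRBJ1-1), the member with the most counts in all (2490), held 3.13% and 2.94% in the ovary parts of number 10 and 0.744% (5 counts) in its brain part 2. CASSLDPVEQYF (TRBV12-1, TRBJ2-7) held 6.45% and 0.848% in the ovary parts of number 13 and 0.290% (2 counts) in its brain part 1. Parts of an ovary could thus differ 7.61-fold in 1 clone.

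Others were seen in 1 organ. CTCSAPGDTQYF (TRBV1, TRBJ2-5) held 2.50% and 1.12% in the ovary parts of number 3 and was in no brain sample, where number 3 had 302 and 320 TRB counts. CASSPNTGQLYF (TRBV12-2, TRBJ2-2) and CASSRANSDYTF (TRBV29, TRBJ1-2) ranked among the 5 largest in brain by mean share with only 9 and 10 counts, in the shallow samples of number 10, part 1 and number 3, part 1. Their rank rests on those depths.

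More generally, many short brain clonotypes were also in the ovary of the same number: 25.3%, 50.0%, 44.4%, 20.3% and 40.5% in numbers 1, 3, 10, 12 and 13. In the ovary of any other number at most 9.26% of them were found. For longer brain clonotypes the values were 23.7%, 35.1%, 39.0%, 21.8% and 31.5%. The difference averaged 5.92 ± 6.36 points (SD, n = 5 numbers), smaller than its spread, and was not tested.

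The shortest loops with at least 10 counts came from different segments. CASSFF (TRBV4, TRBJ2-5) and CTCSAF (TRBV1, TRBJ2-7), of 6 letters, had 13 and 11 counts in ovary number 12, part 2 and ovary number 3, part 1. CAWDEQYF (TRBV31, TRBJ2-7) and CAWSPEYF (TRBV31, TRBJ2-4), of 8 letters, had 20 and 16 counts. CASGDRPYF (TRBV13-2, TRBJ2-7), of 9 letters, had 44 counts in number 3, with 5 of them in its brain. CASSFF and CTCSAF keep 1 letter that matches their J segment's common end, the final F.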

How the data were processed

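Per the labels' protocols, RNA came from AllPrep and mirVana kits and receptor libraries from a QIAseq Immune Repertoire RNA kit. The authors deposited whole-number counts, not normalized, in 1 table with a line for each chain, V and J segment and CDR3. The aligner, the clonotype filters and whether counts are of reads or of molecules are not given in the sources used. GRCh38, a human build, is named in the submitters' processing notes, so coordinates are left out. All 36 unjoined V and J names of the members matched the RefSeq gene table of mouse, and 1 member had a joined V name.

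Of 27517 TRB entries of the table, 133 with an unresolved CDR3 (0.0608% of TRB counts) were left out. Shares are percents of a sample's TRB counts or distinct clonotypes. Depth per sample ran from 266 TRB counts (brain number 10, part 1) to 51674 (ovary number 10, part 1), with a median of 1273 in brain. The members, lists and tests were chosen with earlier results of these data known. Named clonotypes are the 5 of highest mean share per organ, the 10 in most numbers and the 5 shortest with at least 10 counts. Named segments are those that passed, up to 8 V and all J per organ.

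Parts of a number were averaged for shares and joined for segments, sharing and letters. Treatment, organ, clone size, sharing and amino acid comparisons used exact two-sided permutation or sign-flip tests over numbers, with Benjamini-Hochberg adjustment at 0.05. Segments with at least 10 clonotypes in at least 2 libraries were tested with edgeR 4.0.16 (quasi-likelihood, number as a block, offset by the class total) in R 4.3.3. DESeq2 1.42.0 was an alternative. Tested on simulated data, the ovary fit of 33 segments recovered 96.2% of 2-fold changes and the brain fit of 31 segments 91.8%, with 2.70% and 2.30% of calls false. These data were Poisson draws around a segment share common to all numbers, so the rates do not cover further spread between numbers. Python 3.11.15, numpy 2.4.6, pandas 2.3.3, scipy 1.17.1 and matplotlib 3.10.9 were used.

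Same-numbered organs were checked for pairing. V usage was taken by counts of all productive TRB clonotypes, short and longer together. Its deviations from the organ means correlated over 28 segments at 0.415, 0.460, 0.402, 0.536 and 0.278 in numbers 1, 3, 10, 12 and 13. Each exceeded 0.1, and numbers were treated as pairing the organs.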

Additional observations from a re-analysis of the deposited data

How the results depend on the processing

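The numbers pair the organs, so number was also taken as a replicate block, in a test that 5 pairs cannot pass. The ovary minus brain difference in clonotype share then kept its size (-1.77 points) but had an exact sign-flip adjusted p of 0.125. It also lost its call with a limit of 13 letters (-2.43), with samples thinned to the shallowest one (-0.661) and with any number left out (-1.93 to -1.44), where fewer numbers raise the smallest possible p, and it turned sign with a limit of 11 letters (0.00198). Without the block, 15 segments passed in ovary and 17 in brain, so the block moved no count of calls by over 1.5 times. In the brain treatment tests the sign turned for the clonotype share with the lead-in at a limit of 11 letters (0.161) and with trametinib at 13 letters (0.281). The ovary clone size ratio turned sign at 11 letters (-0.395) and without the largest clonotype of each class (-0.0738). The sharing difference lost its call at 11 letters (0.868) and without number 3, with 2.22 to 3.88 over numbers left out. In ovary samples alone (1.46) it could not pass, since the smallest sign-flip p of 5 numbers lies above the threshold. Counts in place of clonotypes gave 5 ovary and 11 brain segments, and TRBV15 in ovary turned to -0.0112. Calls of amino acids rose to 12 with 5 letters left out at each end, where tyrosine (-0.811) and asparagine (1.24) turned sign, and were 5 to 8 with a number left out; without TRBJ2-7, left out after the data were seen, tyrosine was -0.615. The cause of these changes was not tested beyond what is stated. Of 256 alternative values of the main comparisons, 236 kept direction and side of the threshold, or for counts of calls stayed within 1.5 times. For the tests over 5 treatments, which have no direction, only the side of the threshold was compared. The 256 include 148 values of the brain treatment tests, which did not pass in the main setting either. The organ difference in clonotype share kept its call in 5 of 14 alternatives. Depth limits the shares of single brain samples, and in the deep ovary of number 13 the parts differed by more than counting error (22.2% and 13.6%).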

Other observations

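A few features of the short loops belong to no comparison above. In 52 short clonotypes (1.35%) and 235 longer ones (0.998%) the CDR3 did not begin with C. Of the 52, 47 had a counterpart with the same V and J segments and the same remaining letters that began with C, and that counterpart had more counts in 45. The 52 had 67 counts in all, and the counterparts, summed over the 47, had 17822. An additional cysteine inside the loop was found in 292 short (7.602%) and 2227 longer clonotypes (9.46%), of which 246 and 1980 carried TRBV1, whose common start CTCSAD holds 2 cysteines. Hydrophobic letters (A, F, I, L, M, V, W or Y) at both positions 6 and 7 were found in 3.33% of short and 3.48% of longer clonotypes.

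Entries that differ at 1 letter from a clonotype of the same V, J and length with at least 10 times the counts in the same sample were 8.17% of short and 8.10% of longer entries. In brain the shares were 1.15% and 2.85%, in ovary 11.1% and 10.2%. None of these values was tested.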
